A study of Drosophila melanogaster with 8 samples.

Results

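The genes described here encode proteins that copy DNA or supply its building blocks. They are PCNA, the 2 ribonucleotide reductase genes RnrL and RnrS, the 6 MCM genes Mcm2, Mcm3, dpa, Mcm5, Mcm6 and Mcm7, and Orc1, which makes 10 of the 17518 named genes in the count table. Each was found by its symbol, and all 10 passed the filter on low counts that kept 12048 genes for testing. The set was chosen by the function of the products, at a time when the lower levels of PCNA and RnrL under starvation in these same libraries were already known. Differences of the 10 genes between the conditions are therefore given as a description and not as a test.

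RNA was sequenced from heads of male w1118 flies, a white-eyed laboratory strain, aged 1 to 3 d and held for 1 day under the starvation condition or the food condition. Both groups had the same genotype, sex and age, and each condition had 4 biological samples of 30 flies. The activity assay of the same study used agar alone for starvation and sucrose with yeast in agar for food. A head sample mixes brain, eye, fat body, muscle, cuticle and blood cells, so fewer cells of a type and less RNA per cell cannot be told apart in any value below.

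Before a cell divides, the origin recognition complex, in which Orc1 is the largest subunit, marks the sites where copying will start. The complex and its partners load a ring of the 6 MCM proteins onto DNA, and this ring, once activated, is the helicase that unwinds the strands. PCNA is the sliding clamp that holds polymerases on the template. Ribonucleotide reductase, made of a large subunit (RnrL) and a small subunit (RnrS), turns ribonucleotides into the deoxyribonucleotides used for synthesis. In dividing cells many of these genes are switched on together by E2F before S phase, whereas most neurons and photoreceptors of the adult head no longer divide.

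Library totals were 48541958 to 50814153 counts under starvation and 47936038 to 53168449 counts on food. Levels are given as CPM, counts per 1e6 counts of a library after scaling by the TMM factor of edgeR, and 1 count was worth 0.0192 to 0.0216 CPM. The 10 genes together held 16.6 to 20.6 CPM in starvation libraries and 23.2 to 27.7 CPM in food libraries, so all of them were scarce transcripts in the head. Their counts in a library ran between 17 for PCNA and 290 for dpa. Starvation replicate 3 stood apart, with 25.6% of its counts in its 10 most abundant genes, against 17.7% to 20.3% in the other libraries, and 21.9% in mitochondrial transcripts, against 14.1% to 16.6%.

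Of the 10 genes, 6 were called lower under starvation (PCNA, RnrL, RnrS, Orc1, Mcm2 and Mcm7) at an adjusted p under 0.05 in edgeR's quasi-likelihood test, where 16.7% of all genes tested were called lower. At least a 2-fold difference was also present for 4 of them (PCNA, RnrL, Mcm7 and Mcm2), where 5.37% of all genes tested passed both thresholds downwards. None of the 10 was called higher, where 10% of all genes were. The count of 6 was also found without starvation replicate 3, but it was 3 without starvation replicate 4 or without food replicate 1, and 4 without starvation replicate 1 or without food replicate 2. The starvation libraries lay entirely below the food libraries for 5 of the 10 genes, against 18.6% of all genes tested, and entirely above them for 0, against 12.6%. The median log2 fold change was -0.76 over the 10 genes and -0.01 over all genes tested.

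**Figure D1:**
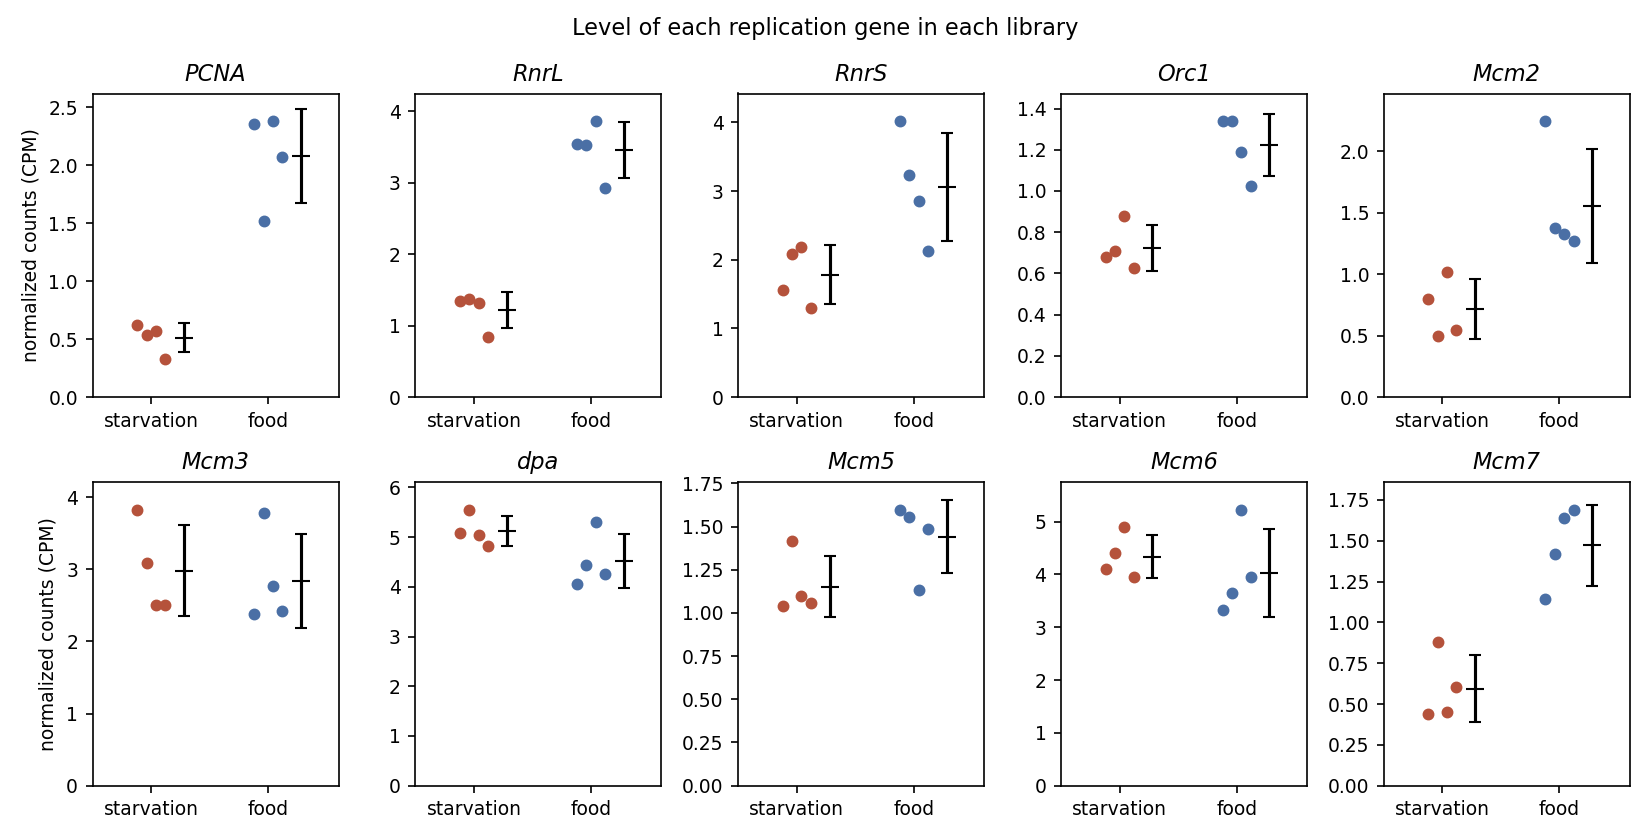
Level of each of the 10 genes in CPM (vertical axes, each from 0) in the 4 starvation and the 4 food libraries; points are libraries, and bars give the mean and SD. The conditions do not overlap for PCNA, RnrL, Orc1, Mcm2 and Mcm7, and they overlap for RnrS, Mcm3, dpa, Mcm5 and Mcm6.

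PCNA, the sliding clamp, had the largest difference of the set. The gene lies on 2R from 20261754 to 20262883 of release 6 of the Drosophila genome and has 1070 exonic bases. It had 31, 28, 29 and 17 counts in starvation replicates 1 to 4 and 109, 77, 122 and 99 counts in food replicates 1 to 4. In normalized units these were 0.621, 0.536, 0.568 and 0.333 CPM under starvation and 2.35, 1.51, 2.38 and 2.07 CPM on food. The highest starvation library thus held less than the lowest food library. The means were 0.514 ± 0.126 CPM under starvation and 2.08 ± 0.402 CPM on food (SD, n = 4 each), and the fitted log2 fold change was -2.01 (standard error 0.24, 95% interval from -2.54 to -1.48), or 4.03-fold lower. At these counts sampling of reads alone gives a coefficient of variation of 19.5% under starvation, and the observed one was 24.5%. On food sampling gives 9.91%, and the observed one was 19.3%. With a single library left out the log2 fold change stayed between -2.14 and -1.82.

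The large subunit of ribonucleotide reductase followed PCNA in size of difference. RnrL lies on 2L from 10325026 to 10327943, with 2577 exonic bases. Its levels were 1.34, 1.38, 1.31 and 0.841 CPM in starvation replicates 1 to 4 and 3.54, 3.52, 3.86 and 2.92 CPM in food replicates 1 to 4. No starvation library reached the level of a food library, and starvation replicate 4 was below the other starvation libraries. The log2 fold change of RnrL was -1.51 (standard error 0.18, 95% interval from -1.90 to -1.11), with 1.22 ± 0.253 CPM under starvation and 3.46 ± 0.392 CPM on food (SD, n = 4 each).

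RnrS, the small subunit, differed by less and with overlap between the conditions. This gene lies on 2R from 11983145 to 11985393 and has 1593 exonic bases. It had 1.56, 2.09, 2.19 and 1.29 CPM in starvation replicates 1 to 4 and 4.02, 3.23, 2.85 and 2.13 CPM in food replicates 1 to 4. Starvation replicate 3 exceeded food replicate 4, and the food libraries spread over a wider range than those of RnrL. Its log2 fold change was -0.77 (standard error 0.23, 95% interval from -1.28 to -0.27). The call of RnrS ended when starvation replicate 1 (log2 fold change -0.69), starvation replicate 4 (-0.62), food replicate 1 (-0.62) or food replicate 2 (-0.75) was left out.

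Per kilobase of exonic sequence, which makes the 2 subunits comparable, RnrS had 1.12 ± 0.269 and RnrL 0.473 ± 0.0982 CPM per kilobase under starvation, and RnrS had 1.92 ± 0.494 and RnrL 1.34 ± 0.152 CPM per kilobase on food (SD, n = 4 each). The level of RnrS over that of RnrL was 1.88, 2.45, 2.70 and 2.48 in starvation replicates 1 to 4 and 1.84, 1.48, 1.19 and 1.18 in food replicates 1 to 4. Transcripts of the small subunit thus outnumbered those of the large subunit per length in every library, and by more in each starvation library than in any food library, although starvation replicate 1 and food replicate 1 were close.

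Orc1, the subunit of the origin recognition complex, lies on 2R from 7522437 to 7525716 with 3152 exonic bases. Its levels were 0.681, 0.709, 0.881 and 0.626 CPM in starvation replicates 1 to 4 and 1.34, 1.34, 1.19 and 1.02 CPM in food replicates 1 to 4. The conditions did not overlap, although the highest starvation library was close to the lowest food library. The log2 fold change of Orc1 was -0.75 (standard error 0.20, 95% interval from -1.20 to -0.30). With 32 to 68 counts in a library, the call ended without starvation replicate 1 (-0.70), starvation replicate 4 (-0.66), food replicate 1 (-0.71) or food replicate 2 (-0.71).

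**Figure D2:**
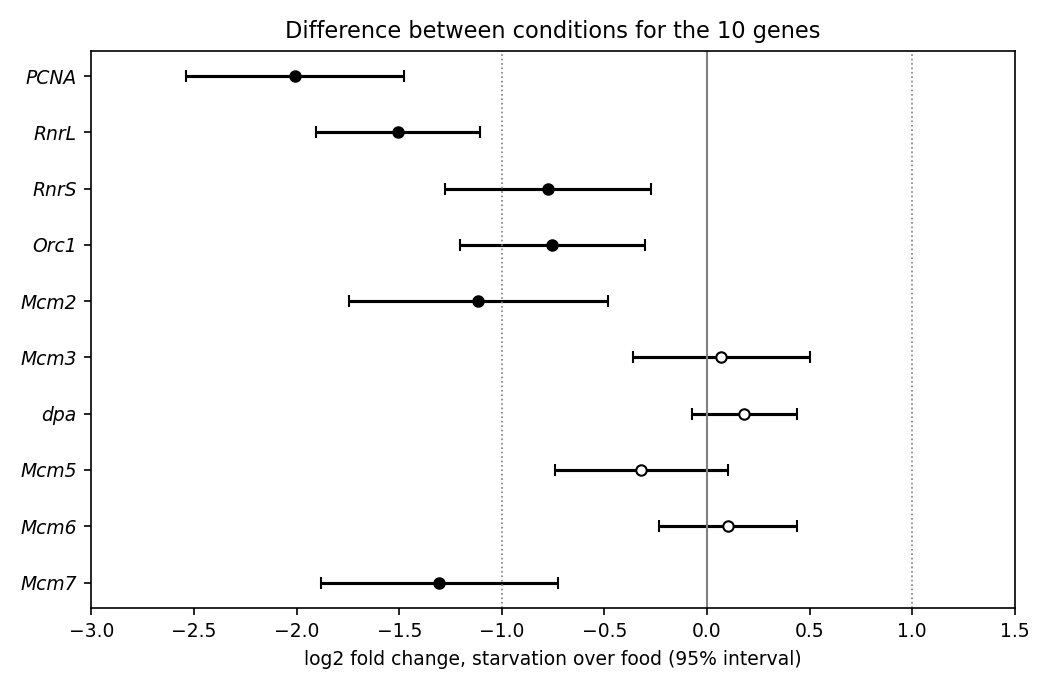
Log2 fold change of starvation over food for each of the 10 genes (horizontal axis), with the 95% interval from the fit over 8 libraries; filled points are genes called lower, open points are genes not called, and dotted lines mark 2-fold. PCNA is at -2.01 and RnrL at -1.51, while Mcm3, dpa and Mcm6 lie between 0.07 and 0.18.

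The 6 MCM genes differed among themselves. Mcm7 and Mcm2 were lower under starvation, Mcm5 was slightly lower within the spread of the libraries, and Mcm3, dpa (the fly Mcm4) and Mcm6 were at the same level or slightly higher. Mcm7, on 3L from 8891596 to 8894310, had 0.441, 0.881, 0.450 and 0.606 CPM in starvation replicates 1 to 4 and 1.15, 1.42, 1.64 and 1.69 CPM in food replicates 1 to 4. Every starvation library was below every food library, and the log2 fold change was -1.30 (standard error 0.26, 95% interval from -1.88 to -0.73). Mcm2, on 3R from 8264970 to 8267924, had 0.801, 0.498, 1.02 and 0.548 CPM in starvation replicates 1 to 4 and 2.25, 1.38, 1.33 and 1.27 CPM in food replicates 1 to 4. Food replicate 1 stood well above the other food libraries, which were close to each other. Its log2 fold change was -1.12 (standard error 0.29, 95% interval from -1.75 to -0.48), and the call ended without food replicate 1 (-0.89) or starvation replicate 4 (-0.97). The 2-fold difference of Mcm2 also went without starvation replicate 2 (-0.97).

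The other 4 subunits overlapped between the conditions. Mcm5, on 3R from 10788524 to 10791150, had 1.04, 1.42, 1.10 and 1.06 CPM in starvation replicates 1 to 4 and 1.60, 1.56, 1.13 and 1.48 CPM in food replicates 1 to 4, a log2 fold change of -0.32 with a 95% interval from -0.74 to 0.10. Food replicate 3 and starvation replicate 2 lay among the libraries of the other condition. Mcm3, on X from 5323855 to 5326738, had 3.83, 3.08, 2.51 and 2.50 CPM in starvation replicates 1 to 4 and 2.38, 3.78, 2.77 and 2.42 CPM in food replicates 1 to 4. One library of each condition was high, and the log2 fold change of 0.07 (95% interval from -0.36 to 0.50) changed sign without starvation replicate 1 (-0.05) or food replicate 1 (-0.0061).

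The dpa gene, on 2R from 7496702 to 7500145, had 5.09, 5.55, 5.05 and 4.83 CPM in starvation replicates 1 to 4 and 4.06, 4.45, 5.31 and 4.26 CPM in food replicates 1 to 4. Only food replicate 3 reached into the starvation range, and the log2 fold change was 0.18 (95% interval from -0.07 to 0.44). Mcm6, on X from 6674387 to 6677176, had 4.11, 4.41, 4.89 and 3.95 CPM in starvation replicates 1 to 4 and 3.33, 3.64, 5.23 and 3.95 CPM in food replicates 1 to 4. Its highest library was food replicate 3, and its log2 fold change was 0.10 (95% interval from -0.23 to 0.44). For Mcm5, Mcm3, dpa and Mcm6 the upper bounds of the intervals lie well under a 2-fold rise, and the lower bounds lie above a 2-fold fall.

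In the assembled helicase each of the 6 subunits is present once, but their transcripts were uneven in both conditions and more so under starvation. Per kilobase of exonic sequence the most abundant MCM transcript was dpa or Mcm6 in every library and the least abundant was Mcm2 or Mcm7. The ratio of the highest to the lowest was 9.22, 10.5, 9.55 and 8.32 in starvation replicates 1 to 4 and 2.83, 3.05, 4.09 and 3.22 in food replicates 1 to 4. The lowest subunit had few counts under starvation. It was Mcm7 in replicates 1 and 3 (22 and 23 counts) and Mcm2 in replicates 2 and 4 (26 and 28 counts). The ratio restates the lower levels of Mcm2 and Mcm7 given above, so it is a description. Reads of abundant neighbours of dpa and Mcm6, described below, could also raise it, which was not tested. Mcm2, Mcm5 and Mcm7 summed to between 0.867 and 1.11 CPM per kilobase under starvation and to between 1.59 and 1.89 on food. Mcm3, dpa and Mcm6 summed to between 3.90 and 4.52 CPM per kilobase under starvation and to between 3.38 and 4.61 on food. The first sum did not overlap between the conditions and the second did, and because the subunits were put into these sums after their values were seen, both are a description.

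**Figure D3:**
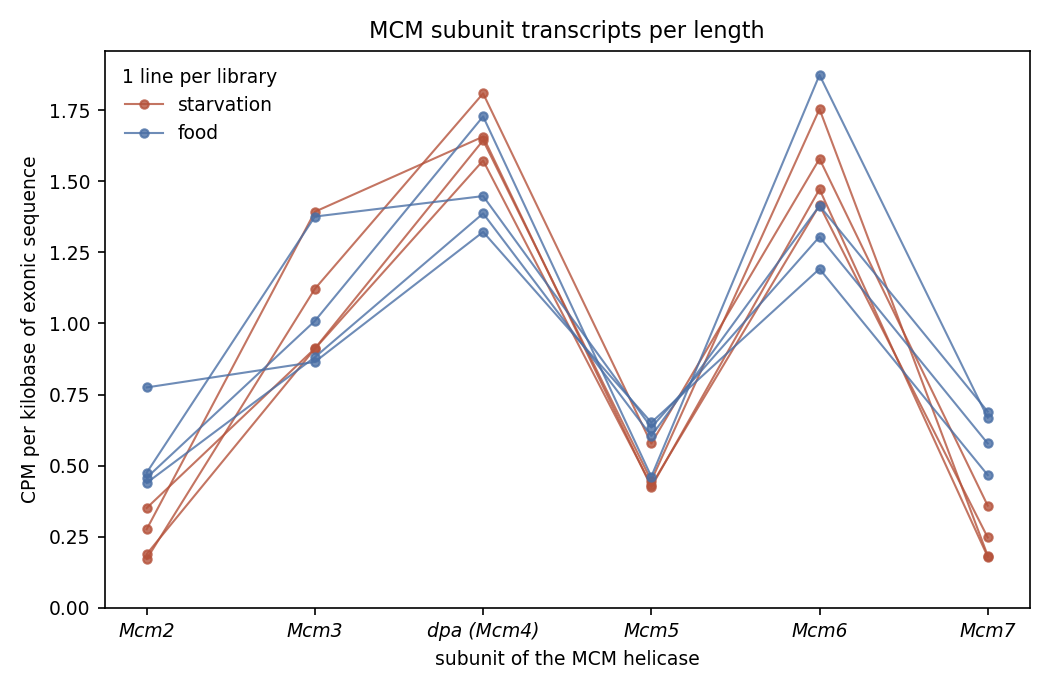
CPM per kilobase of exonic sequence (vertical axis) for the 6 MCM subunits (horizontal axis), with 1 line for each of the 4 starvation and 4 food libraries. In each library dpa or Mcm6 is highest and Mcm2 or Mcm7 lowest, and the starvation lines lie below the food lines at Mcm2 and Mcm7.

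The order of the 10 genes by level per kilobase differed between the conditions. Under starvation dpa (1.67 ± 0.0990 CPM per kilobase) and Mcm6 (1.56 ± 0.149) led and overlapped each other, then came RnrS (1.12) and Mcm3 (1.09), which also overlapped. PCNA (0.481), RnrL (0.473) and Mcm5 (0.470) followed as a group that could not be separated, and Mcm2 (0.247), Mcm7 (0.243) and Orc1 (0.230) were lowest. On food PCNA (1.94 ± 0.376 CPM per kilobase) and RnrS (1.92 ± 0.494) came first, and each gene overlapped its neighbour in the order down through dpa (1.47), Mcm6 (1.45), RnrL (1.34) and Mcm3 (1.03). Mcm7 (0.601), Mcm5 (0.588) and Mcm2 (0.537) formed the next group, and Orc1 (0.388) was lowest (SD, n = 4 each). PCNA thus ranked 1 of 10 on food and 5 of 10 under starvation.

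None of the 10 genes overlapped another gene in the table. Some lay next to genes with far more reads, and as the sources used here do not state whether the counting used strand, reads that run past the end of such a neighbour could add to a count. The gene didum lies 1 base from dpa and averaged 119 CPM over the 8 libraries, ND-ASHI lies 85 bases from Mcm6 with 94.4 CPM, and Hsl, a lipase gene, lies 27 bases from PCNA with 53.6 CPM. Of these, didum (log2 fold change 0.09, adjusted p = 0.58) and ND-ASHI (0.01, adjusted p = 0.97) were not called, and Hsl was called higher (0.25, adjusted p = 0.035), opposite in direction to PCNA. In contrast, dally, which lies 403 bases from Mcm7 with 137 CPM, was called lower (-0.50, adjusted p = 0.0050), as Mcm7 was. The most abundant neighbour was Drat, 401 bases from Orc1 with 199.5 CPM (0.08, adjusted p = 0.70). The part of neighbouring transcripts in the counts of the 10 genes was not tested. Of the 20 genes that flank a gene of the set, 18 were tested, and 2 were called lower and 2 higher, where 16.7% of all genes were lower and 10% higher. The dpa and Orc1 genes lie 22291 bases apart on the same arm, and their fold changes differed in sign.

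To see whether the rest of the replication machinery moved as well, 52 further genes were grouped by role, of which 51 passed the filter and were tested. In these, 9 were called lower and 3 higher at an adjusted p under 0.05, or 19 at an unadjusted p under 0.05, and their median log2 fold change was -0.10. Of all genes tested, 16.7% were called lower and 10% higher. A share of 9 in 51 is close to that of all genes called lower, so the list as a whole did not stand out from the head transcriptome. The lists were drawn up by function with earlier results of these data known.

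The largest falls among the tested genes of this wider list were those of 3 genes. DNApol-alpha180, the catalytic subunit of DNA polymerase alpha that starts new strands, had 0.601, 0.958, 0.724 and 0.880 CPM in starvation replicates 1 to 4 and 2.01, 3.13, 2.42 and 2.26 CPM in food replicates 1 to 4. The conditions were far apart, and its log2 fold change was -1.63 (standard error 0.21, adjusted p = 2.1e-04, where this and each adjusted p below is the Benjamini-Hochberg value over all tested genes in the edgeR fit). Psf1, a subunit of the GINS complex that activates the MCM ring, had 0.425 ± 0.0691 CPM under starvation and 1.05 ± 0.148 CPM on food (SD, n = 4 each; log2 fold change -1.30, adjusted p = 0.0016). RecQ4, a helicase needed to start replication, fell by a like amount (-1.33, adjusted p = 0.0034), with 0.638 ± 0.223 CPM under starvation and 1.61 ± 0.282 CPM on food (SD, n = 4 each). Among the 51 tested genes of the wider list these 3 were called lower and at least 2-fold, where 5.37% of all genes tested were. The count is thus close to the share of all genes. Each of the 3 kept its call whichever library was left out. DNApol-epsilon58, a small subunit of DNA polymerase epsilon, did not pass the low-count filter of the main fit, so it has no fold change here. It had 1, 7, 1 and 1 counts in starvation replicates 1 to 4 and 24, 21, 19 and 8 counts in food replicates 1 to 4. Its conditions did not overlap.

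Smaller falls were those of dup, the fly Cdt1 that helps to load the MCM ring (-0.49, adjusted p = 0.0064), Top2, which untangles DNA (-0.38, adjusted p = 0.0066), and awd, a nucleoside diphosphate kinase (-0.65, adjusted p = 0.0047). Caf1-180, the large subunit of the chromatin assembly factor, also passed (-0.71, adjusted p = 0.021), but not without food replicate 1 (-0.57) or food replicate 4 (-0.69). The calls of dnk, which salvages deoxynucleosides (-0.33, adjusted p = 0.033), and of Psf3, another GINS subunit (-0.27, adjusted p = 0.044), were the weakest. That of dnk held only without starvation replicate 3 or food replicate 3 among the 8 ways to leave out a library (-0.36 in both), and that of Psf3 only without starvation replicate 3 (-0.34). Leaving out any other library gave -0.35 to -0.27 for dnk and -0.29 to -0.19 for Psf3. The level of Psf3 was far above that of the other GINS subunits, with means of 95.95 CPM under starvation and 115.5 CPM on food. Psf2 had 2.06 and 2.72 CPM, Sld5 0.68 and 0.74 CPM, and Psf1 0.425 and 1.05 CPM. The cause of this excess was not tested.

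Transcripts of 3 genes of the wider list rose. DNApol-alpha50, the catalytic primase subunit that works in a complex with DNApol-alpha180, had 2.604, 3.62, 3.90 and 4.67 CPM in starvation replicates 1 to 4 and 2.12, 2.30, 2.17 and 1.57 CPM in food replicates 1 to 4. The conditions did not overlap (log2 fold change 0.86, standard error 0.19, adjusted p = 0.0073), and the direction was opposite to that of DNApol-alpha180. The other subunits of the complex, DNApol-alpha60 (-0.92, adjusted p = 0.13) and DNApol-alpha73 (-0.43, adjusted p = 0.43), were not called. The other rises were those of rnh1, a ribonuclease H (0.45, adjusted p = 0.010), and Cdc7, the kinase that phosphorylates the MCM ring (0.41, adjusted p = 0.032). The rise of Cdc7 lost its call without starvation replicate 1 (0.42) or 2 (0.34) or without food replicate 2 (0.35), 3 (0.35) or 4 (0.42).

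By role, 1 of 8 tested genes of origin recognition and licensing was lower and 0 higher, with a median of -0.06. Of all genes tested, 16.7% were called lower and 10% higher, and no list was tested against these shares. Orc2 (-0.43, adjusted p = 0.39), Orc3 (-0.17, 0.52), Orc4 (0.26, 0.23), Orc5 (0.10, 0.70) and Orc6 (0.05, 0.90) were not called, and the difference between Orc1 and these subunits was not tested. Among 10 genes of helicase activation 3 were lower and 1 higher (median -0.19), among 9 of the polymerases and primase 1 was lower and 1 higher (0.12), and among 15 of the clamp loader, RPA, strand joining and topoisomerase group 1 was lower and 1 higher (-0.10). Chromatin assembly had 1 of 4 genes lower (0.04) and deoxynucleotide supply 2 of 5 (-0.23). The clamp loader genes RfC3 (-0.21, adjusted p = 0.32), RfC4 (0.21, 0.30), RfC38 (0.16, 0.49) and Gnf1 (0.20, 0.086), whose products place PCNA on DNA, were not called.

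**Figure D4:**
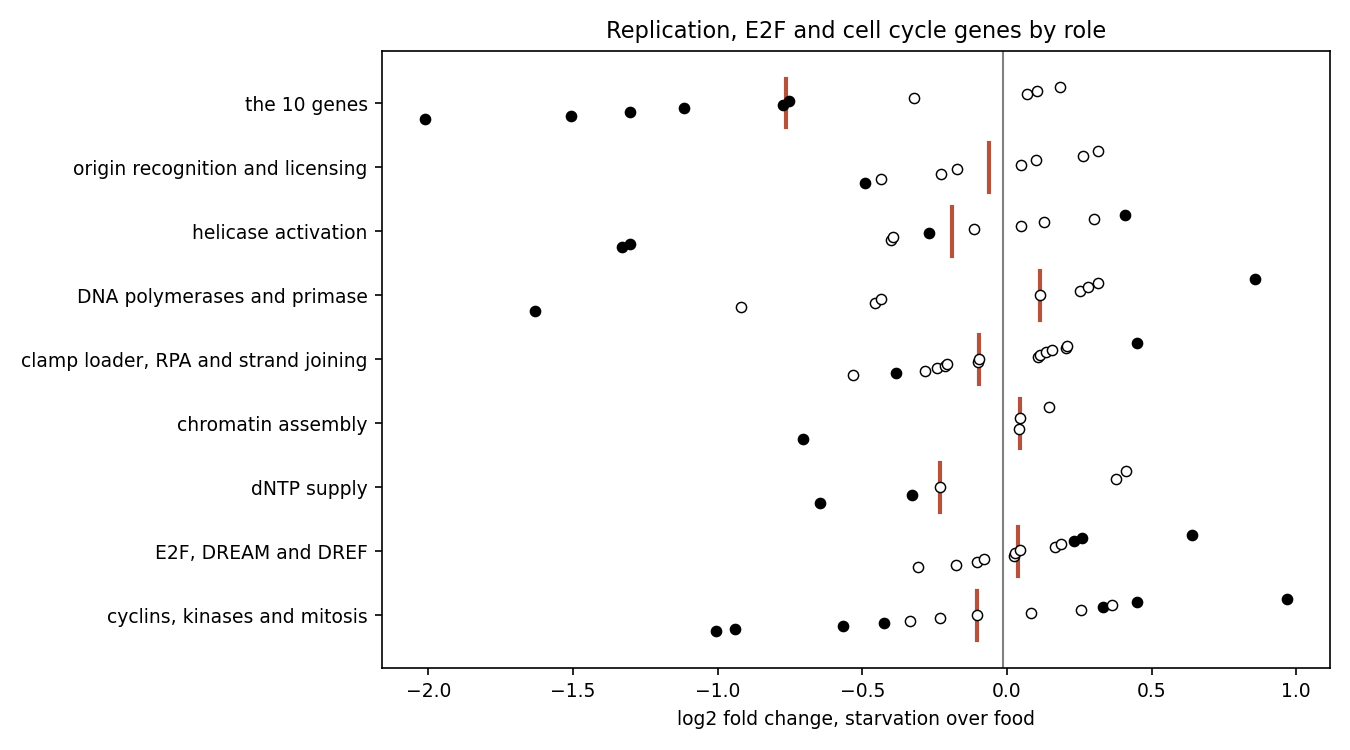
Log2 fold change of starvation over food (horizontal axis) for the 10 genes and for the tested genes of 8 lists; filled points have an adjusted p under 0.05, red bars are list medians and the grey line is the median of all genes tested. The medians of the 8 lists lie between -0.23 and 0.12, and that of the 10 genes is -0.76.

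The regulators of these genes were also examined. E2f1 with its partner Dp activates replication genes, the Rbf proteins hold it back, and the complex that contains Myb and the mip proteins binds many of the same promoters. In the 12 genes of this list 0 were called lower and 3 higher in edgeR (5 had an unadjusted p under 0.05), against 16.7% lower and 10% higher of all genes, with a median log2 fold change of 0.04. Myb had 72.0, 81.0, 82.4 and 81.1 CPM in starvation replicates 1 to 4 and 53.5, 53.3, 48.1 and 48.3 CPM in food replicates 1 to 4. All starvation libraries were clearly above all food libraries (log2 fold change 0.64, standard error 0.07, adjusted p = 1.0e-04). Dp (0.23, adjusted p = 0.016) and mip120 (0.26, adjusted p = 0.028) also rose. The call of Dp ended without food replicate 1 (0.22) or food replicate 2 (0.22), and that of mip120 ended in 5 of the 8 ways to leave out a library, over which its value ran from 0.23 to 0.30. E2f1, E2f2, Rbf and Dref had log2 fold changes of -0.18, 0.19, 0.05 and 0.17, with adjusted p-values from 0.081 to 0.82.

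Of the 13 tested cyclins, kinases and mitotic regulators, 4 were lower and 3 higher, against 16.7% and 10% of all genes. CycA, a cyclin of S phase and mitosis, fell to 1.63 ± 0.225 CPM under starvation, against 3.13 ± 0.248 CPM on food (SD, n = 4 each; log2 fold change -0.94, adjusted p = 7.5e-04). The G1 pair CycD (-0.43, adjusted p = 0.0060) and Cdk4 (-0.57, adjusted p = 0.0041) also fell, and so did stg, the phosphatase that triggers mitosis (-1.01, adjusted p = 0.026). CycB3, a mitotic cyclin, rose (0.97, adjusted p = 0.0084), as did aurA, a kinase of the mitotic spindle (0.45, adjusted p = 0.022), and dap, an inhibitor of CycE and Cdk2 (0.33, adjusted p = 0.031). CycE itself, which starts S phase, had a value of -0.33 (adjusted p = 0.083). The call of stg ended without starvation replicate 4 (-0.84) or without food replicate 1 (-0.94), 2 (-1.06) or 3 (-0.91), and that of aurA ended without starvation replicate 4 (0.45) or food replicate 2 (0.39). For dap 5 of the 8 ways to leave out a library ended the call, with values from 0.27 to 0.40.

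MCM-like genes that act outside the replicative ring were set beside the 6 subunits. The meiotic pair mei-217 (-0.49, adjusted p = 0.040) and mei-218 (-0.38, adjusted p = 0.044) overlap each other in the table, so their reads cannot be told apart, and leaving out a library ended the call of mei-217 in 7 of 8 ways and of mei-218 in 6 of 8. Their values without 1 library ran from -0.53 to -0.37 and from -0.44 to -0.31. The relative rec, the fly Mcm8, was not called (0.12, adjusted p = 0.37).

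Markers of several cell types differed between the same libraries, in which 16.7% of all genes tested were called lower and 10% higher. Fat body markers, of which 9 of 10 were tested, were lower for 8 genes and higher for 0, and their summed level was 988 to 1362 CPM under starvation and 6609 to 10910 CPM on food. Lsp2, a storage protein, had a log2 fold change of -8.03 (adjusted p = 9.6e-07) and apolpp, the main lipoprotein, -2.81 (adjusted p = 1.0e-06). These 2 genes made up most of the food sums, with means of 3904 CPM for Lsp2 and 3233 CPM for apolpp on food. Under starvation they had 14.9 and 463 CPM. The 8 called markers ran from -8.03 to -0.75 (Apoltp), and Fbp1 was not called (-0.49, adjusted p = 0.35). Hemocyte markers, genes of the blood cells, were lower for 7 of 9, all 7 at least 2-fold, where 5.37% of all genes tested were. Their sums were 174 to 237 CPM under starvation and 256 to 436 CPM on food. The gene crq, a scavenger receptor that was not called (-0.14, adjusted p = 0.24), made up much of these sums, with 129 ± 6.33 CPM under starvation and 142 ± 10.5 CPM on food (SD, n = 4 each), so the sums differed by less than the called markers, whose log2 fold changes ran from -2.94 to -1.03. Hml, a defining hemocyte gene, had 15.8, 29.3, 7.13 and 5.48 CPM in starvation replicates 1 to 4 and 97.2, 134, 92.1 and 41.9 CPM in food replicates 1 to 4. The starvation libraries were all below the food libraries for Hml (log2 fold change -2.66, adjusted p = 0.0027), as for eater (-2.94, adjusted p = 3.4e-04) and NimC1 (-2.15, adjusted p = 0.012). NimC1 separated only narrowly, with at most 7.99 CPM under starvation and at least 8.10 CPM on food. He and PPO1 were called lower but overlapped between the conditions, and PPO2 was not called (-0.16, adjusted p = 0.21). No defining marker of either cell type was at 0 in all libraries.

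Markers of the other head cells differed less, again beside 16.7% lower and 10% higher of all genes tested. All 7 glial markers were lower, none of them 2-fold, with sums of 1643 to 1954 CPM under starvation and 2686 to 3011 CPM on food. Of 7 photoreceptor markers 5 were higher, with sums of 16840 to 20520 CPM under starvation and 14040 to 15750 CPM on food. Most of these sums was ninaE, with means of 13950 CPM under starvation and 11450 CPM on food. It was not called (log2 fold change 0.29, adjusted p = 0.082). The 6 neuronal markers (Syt1 -0.07, nSyb 0.05) and the 5 muscle markers (Mlc2 -0.12, Mhc -0.42) had 0 calls, with 0 and 1 at an unadjusted p under 0.05. Log2 fold changes ran from -0.36 to 0.05 over the neuronal list and from -0.42 to 0.18 over the muscle list. Neuronal sums were 3902 to 6431 CPM under starvation and 5630 to 6338 CPM on food. Muscle sums were 3682 to 4988 CPM under starvation and 4334 to 5717 CPM on food. Starvation replicate 3 had the lowest sum of both lists, which widened the spread under starvation. Germline genes, used as a check for cells that divide outside the head, summed to 2.62 to 3.60 CPM under starvation and 3.40 to 4.0 CPM on food, and bam alone was called among 5 (-2.83, adjusted p = 0.0038). The part of any of these cell types in the levels of the 10 genes was not tested.

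**Figure D5:**
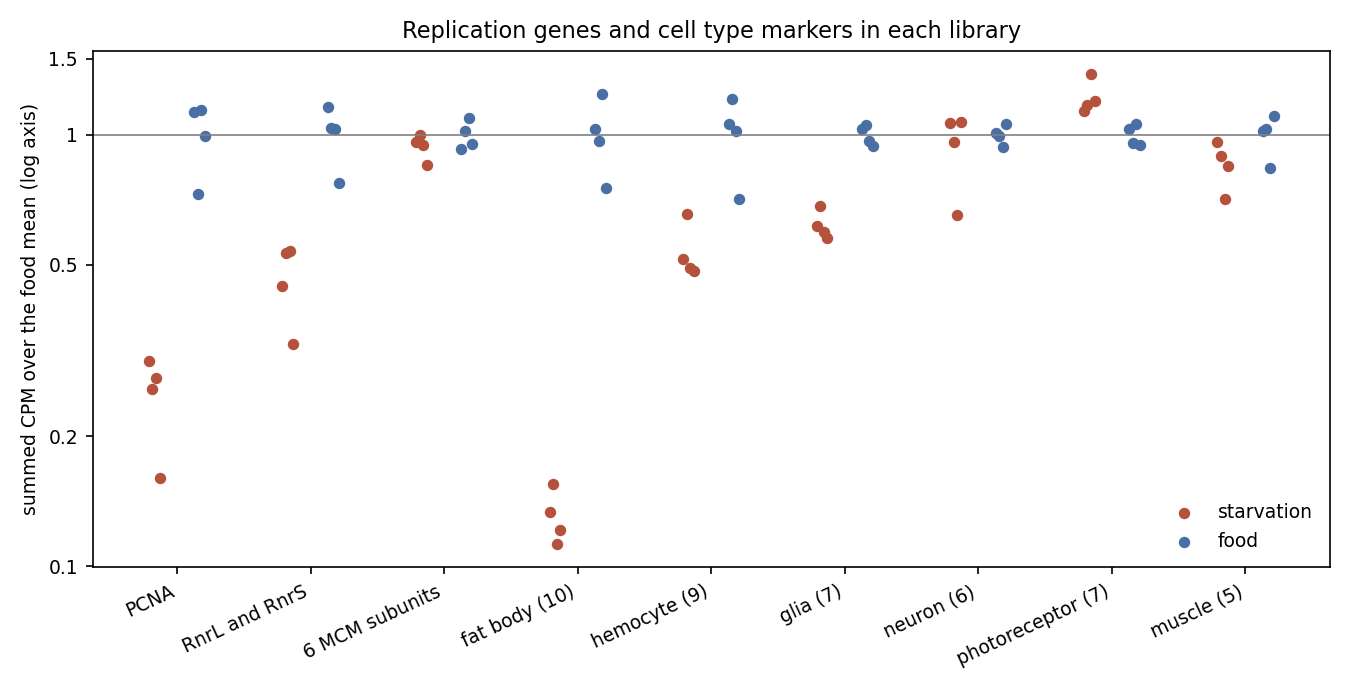
Summed CPM of each set over its mean in food libraries (vertical log axis) for PCNA, the reductase genes, the 6 MCM genes and 6 marker lists (number of genes in brackets); each point is a library. Starvation libraries lie at 0.160 to 0.299 of the food mean for PCNA, 0.327 to 0.538 for the reductase genes, 0.850 to 0.999 for the MCM sum, 0.113 to 0.155 for fat body markers and 0.483 to 0.656 for hemocyte markers. On food the fat body sum is mostly Lsp2 and apolpp, and the hemocyte sum holds much crq.

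Genes whose level followed the 2 strongest members most closely were looked up among 10421 other tested genes with at least 1 CPM on average, by Pearson's r of log2 CPM over the 8 libraries. For PCNA these were CG32391, CG17560 and CG7778 (r = 0.993 each), CG30008 (r = 0.992) and Obp93a, an odorant binding protein gene (r = 0.991). For RnrL they were CG9360 (r = 0.999), Cyp4e2, a cytochrome P450 gene (r = 0.997), the aquaporin-like gene Eglp4, CG11236 and Lsd-1, which encodes the lipid droplet protein perilipin (r = 0.996 each). All 10 of these genes were called lower, where 16.7% of all genes tested were, with log2 fold changes between -2.77 and -0.81. The 8 points share the split between the conditions, and the genes were picked for a high r with genes that were lower under starvation. Their calls were thus largely fixed by the choice, and each r is a description. Among the 10 replication genes the highest r over the 8 libraries was that of PCNA with RnrL (0.977), RnrL with Orc1 had 0.943, and Mcm2 with dpa had -0.71.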

How the data were processed

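The authors mapped 100-bp paired-end reads of poly(A)+ libraries with STAR 2.6.1b to release 6.22 of the Drosophila genome, merged 2 flow cells per sample with samtools and deposited raw counts per gene made with ASpli, with coordinates and exonic length. The strand setting is not given in the sources used here. From the deposited counts, 1 row without a gene name (0.0042% to 0.0054% of a library) was left out, and no column was without a sample (0 columns). In R 4.3.3, edgeR 4.0.16 gave TMM factors, the filter (filterByExpr) and a quasi-likelihood F-test over all 8 libraries without covariates, with Benjamini-Hochberg adjustment over 12048 genes. Calls use an adjusted p under 0.05, and where stated also 2-fold. The study used both thresholds together. Standard errors were derived from each F statistic and its fold change. The common biological coefficient of variation was 0.138. The script was tested on simulated data.

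The 10 genes and all gene lists were chosen with earlier results of these data known. Named are the 10 genes, called genes of each list (otherwise its 2 most abundant), the 5 genes most like PCNA and RnrL, and markers. Orc2 to Orc6, Psf2, Sld5, the clamp loader genes, E2f1, E2f2, Rbf, Dref, CycE, rec, DNApol-alpha60, DNApol-alpha73, DNApol-epsilon58, Apoltp, Fbp1, crq, PPO2, ninaE and the flanking genes were named after their values were seen. Of 141 listed symbols 141 were matched, 1 through a RefSeq synonym. Alternatives were RLE and upper-quartile factors, DESeq2 1.42.0, limma-voom (limma 3.58.1), other filters, a test against 2-fold, a replicate block, each library omitted in turn, and omission of the 10 most abundant genes. Promoter and protein sequences were not analysed here.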

Additional observations from a re-analysis of the deposited data

Results flagged for a closer look

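In 52 sets of 4 libraries (each of the 10 genes and each list sum, per condition), outliers were sought by Dixon's ratio. This is the gap between a library and its nearest neighbour over the range of the set. A library was flagged in 6 sets, where chance gives about 1 in 20. The ratio ignores the size of the gap, so a small gap in a tight set can be flagged. RnrL in starvation replicate 4 was at 0.841 CPM, against 1.31 to 1.38 CPM in the other starvation libraries, and Mcm5 in starvation replicate 2 was at 1.42 CPM, against 1.04 to 1.10 CPM. Mcm2 in food replicate 1 was at 2.25 CPM, against 1.27 to 1.38 CPM in the other food libraries. In starvation replicate 4 the E2F list summed to 370 CPM, against 356 to 358 CPM, and the cyclin list to 48.6 CPM, against 50.9 to 51.2 CPM. The clamp loader list summed to 263 CPM in food replicate 2, against 258 to 259 CPM.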

How the results depend on the processing

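The number of the 10 genes called lower was 6 with RLE or upper-quartile factors, other filters, DESeq2, limma-voom, the replicate block and without the 10 most abundant genes. It was 3 to 6 when 1 library was left out, lowest without starvation replicate 4 or food replicate 1, which left PCNA, RnrL and Mcm7. Those lower and at least 2-fold numbered 4, or 3 with upper-quartile factors and 3 to 4 without 1 library. Tested against 2-fold, 1 gene (PCNA) was lower, and both wider lists had 0 calls in either direction, as against 245 lower and 28 higher of all genes. Without 1 library 6 to 12 further replication genes and 3 to 6 E2F and cell cycle genes were lower. The further replication genes called higher numbered 6 with upper-quartile factors and 2 to 6 without 1 library (6 without starvation replicate 3), and the E2F and cell cycle genes called higher numbered 3 to 7 (3 without starvation replicate 4, food replicate 1 or food replicate 2). Upper-quartile factors raised the median of all genes to 0.10 and gave 59.8% of calls as higher (2292 higher, 1543 lower), against 37.6% in the main fit (1210 and 2012); the median of the 10 genes was then -0.64, and Mcm2 fell under 2-fold. Genes called higher numbered 1947 without starvation replicate 3, 776 without food replicate 1 and 760 without food replicate 2. Deviations of same-numbered libraries correlated only weakly, at 0.014 to 0.15, but 3 of 4 starvation libraries matched their own number best. Whether the numbers mark pairs was not settled by these values, and the main fit did not treat them as pairs. With the replicate block 7 further replication genes were lower and 3 higher, and Psf3, dnk and mei-218 lost their calls. These 3 also lost them with upper-quartile factors, with no filter and without the 10 most abundant genes, Psf3 and mei-218 with RLE factors, and mei-218 with limma-voom and DESeq2. The call of mei-217 ended with upper-quartile factors and with no filter. The cause of these shifts was not tested. Promoter motifs were planned and not run. Counts of 17 to 290 limit the precision of each of the 10 genes. DNApol-epsilon58, with 0.048 CPM under starvation and 0.367 CPM on food on average, did not pass the low-count filter of the main fit.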
